A study of Mus musculus with 12 samples.

Results

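STAT5A-reconstituted mouse embryonic fibroblasts (MEFs, stromal cells cultured from embryos) were compared with wild-type MEFs over both hormone treatments. The comparison rests on 8 of the study's 12 arrays, 4 of reconstituted cells (S5) and 4 of wild-type cells (WT), and covers 18180 genes. Where a gene had several probe sets, the one of highest mean level across the 12 arrays stood for it, and genes of X inactivation and of the Y chromosome were left aside.

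The S5 cells were Stat5-null MEFs infected with a retrovirus that carried a STAT5A vector, either untreated (2 arrays) or given growth hormone for 120 minutes (2 arrays). Stat5-null MEFs without the vector (KO), again 2 untreated and 2 hormone-treated arrays, are set beside them, and the WT cells were 2 untreated and 2 hormone-treated arrays of wild-type MEFs. All cells were labelled C57BL/6, and the 2 arrays within a group are described as biological duplicates. The study as a whole asks what happens to genes near sites that STAT5 binds, and binding data are not analysed here. No label gives KO cells with an empty vector, a vehicle control, the embryo, the passage or the clone behind a genotype. The effect of STAT5A, of the vector and of the cell preparation therefore cannot be told apart in S5 minus WT, and the p-values measure the spread between arrays.

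STAT5A and STAT5B are transcription factors that wait in the cytoplasm until a cytokine receptor activates them. Growth hormone binds its receptor, the receptor's kinase JAK2 phosphorylates STAT5, and STAT5 dimers enter the nucleus and bind sites of the form TTCNNNGAA near genes such as Cish and Socs2, whose products damp the receptor. In liver the same pathway drives Igf1, the growth factor behind much of the hormone's effect on body growth. Fibroblasts of different body regions are told apart by their Hox genes and other patterning factors, and they share a set of surface and matrix genes that includes Pdgfra, Thy1 and the collagens.

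Values are the deposited log2 expression values of the arrays. The values have a dense low mode below 4, where 54.3% of the probe sets had their mean over the arrays, and values there are treated as too low to rank. Where all 4 arrays of a genotype lay below 4, its level was set to 4 and a fold is given as "at least". Where only some of the 4 arrays did, their values entered as read. Such a fold rests in part on values too low to rank. Where all arrays of both genotypes lay below 4, no fold is given. Adjusted p-values are those of limma with the hormone treatment as a block, adjusted by the Benjamini-Hochberg method over all 18180 genes at a threshold of 0.05. Where 4 values of a genotype are listed, the first 2 are from untreated and the last 2 from hormone-treated arrays, and a mean ± SD is over the 4 arrays of a genotype. Levels are compared within a gene only.

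The median over probe sets was 2.86 to 3.02 per array, and duplicate arrays correlated over 11488 genes with r between 0.989 and 0.996. Precision is limited by the number of arrays. For Gapdh, the 3′ minus the 5′ control probe set on the log2 scale, a measure of how far labelling reached along the transcript, was 1.44 to 1.62 on S5 arrays, 0.94 to 1.11 on KO arrays and 0.89 to 1.22 on WT arrays. Its mean was 1.52 ± 0.08 in S5 and 1.02 ± 0.15 in WT (SD, n = 4 each), with p = 0.0286 in a two-sided exact permutation test, the smallest that 4 against 4 arrays allow. For Actb the difference was 3.09 ± 0.05 in S5 and 2.88 ± 0.25 in WT (SD, n = 4 each; exact permutation p = 0.143). The part of this shift in the differences below was not tested.

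Of the 18180 genes, 7997 (44.0%) passed the threshold in S5 minus WT, 4309 (23.7%) higher and 3688 (20.3%) lower in S5. The median difference over all genes was -0.02. Of the calls, 53.9% were higher in S5, against 62.5% after quantile normalization and 79.4% after centring each array on its median, which moves the median over all genes to 0.12. With so many calls, a fold of 2 was added as a second condition after the data were seen. It left 2816 genes (15.5%), of which 1367 (7.52%) rose and 1449 (7.97%) fell, and 48.5% of these calls were higher in S5 (53.9% after quantile normalization and 56.6% after centring). The 2-fold counts of the gene lists below are to be read beside these 7.52% and 7.97% of all genes. Falls were larger: 272 genes fell and 64 rose at least 16-fold. Of the 1449 genes that fell, 428 lay below 4 on all 4 S5 arrays, and of the 1367 that rose, 98 did so on all 4 WT arrays. All 2816 genes differed in the same direction without and with growth hormone. A gene whose direction turns can hardly pass a pooled test with a 2-fold condition, so this follows largely from the selection. All 4 S5 arrays lay above all 4 WT arrays in 20.6% of genes and below them in 19.8%, together 40.3%. The largest rises and falls named below were ranked among these genes only. Most list members named were picked by a small adjusted p. A lack of overlap in such genes is therefore a description and no further test.

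On the probe sets tested, both deleted genes lay in the low mode on all S5 and KO arrays. Stat5a stood at 2.40, 2.42, 2.36 and 2.34 on the S5 arrays, at 2.38 to 2.47 on the KO arrays and at 11.51, 11.45, 12.11 and 12.39 on the WT arrays of the probe set tested, and S5 was at least 233-fold lower (adjusted p = 6.6e-07). Another Stat5a probe set read 9.86, 9.90, 9.04 and 9.14 on the S5 arrays, 2.19 to 2.25 on the KO arrays and 2.23 to 2.38 on the WT arrays, and was not used in the test. The 2 probe sets thus give S5 and WT cells in opposite order. Where their probes lie relative to the deletion and the vector was not analysed here. Stat5b stood at 1.96, 1.96, 1.94 and 1.94 on the S5 arrays and at 9.04, 8.98, 9.33 and 9.39 on the WT arrays, at least 36.4-fold lower in S5 (adjusted p = 7.9e-08), with KO arrays at 1.93 to 2.01.

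Upstream of STAT5 the differences were small. Ghr, the growth hormone receptor, averaged 14.08 ± 0.04 in S5 and 13.93 ± 0.04 in WT (SD, n = 4 each), a difference of 0.15 that passed the threshold (adjusted p = 0.0072). Jak2, the kinase that the receptor carries, averaged 12.33 ± 0.12 in S5 and 12.28 ± 0.25 in WT (SD, n = 4 each), and the difference of 0.05 ± 0.06 (SE) did not pass (adjusted p = 0.52). Of 27 measured JAK-STAT components 5 rose and 11 fell, with a median of -0.15, beside 23.7% and 20.3% of all genes. None rose and 3 fell at least 2-fold, beside 7.52% and 7.97% of all genes. Stat3, another STAT that cytokines of the interleukin 6 family activate, fell 2.22-fold (adjusted p = 0.00062), and Osmr, a receptor of that family, fell 1.88-fold (adjusted p = 8.4e-05). Stat6, which interleukin 4 activates, rose 1.54-fold (adjusted p = 7.9e-05) and Pias1, an inhibitor of STAT binding to DNA, rose 1.89-fold (adjusted p = 0.00012).

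Downstream, the classical targets differed from each other. Socs2, a feedback inhibitor of the growth hormone receptor, had values of 8.88, 8.96, 13.22 and 13.64 on the S5 arrays and 7.14, 7.28, 11.44 and 11.42 on the WT arrays. Both S5 groups lay above the WT group of the same treatment, and S5 was 3.62-fold higher over the treatments (log2 difference 1.86 ± 0.11 SE, adjusted p = 5.2e-05). KO arrays read 4.64 to 5.40. Cish, a feedback inhibitor of the same family, read 3.45, 3.55, 9.33 and 9.17 on the S5 arrays and 4.84, 5.17, 8.22 and 8.07 on the WT arrays. Untreated S5 cells lay below untreated WT cells and treated S5 cells above treated WT cells, so that the pooled difference of -0.20 ± 0.54 (SE) did not pass (adjusted p = 0.77), while the 2 treatments differed by 2.61 (adjusted p = 0.0055 for the interaction).

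Igf1 was lower in S5. It read 6.71, 6.82, 7.62 and 7.41 on the S5 arrays, 10.73, 10.19, 9.81 and 10.52 on the KO arrays and 11.46, 11.87, 11.83 and 12.01 on the WT arrays, with no overlap between the genotypes. S5 was 25.2-fold below WT (adjusted p = 4.4e-06), and each of the 3 other Igf1 probe sets was also lower in S5, by 18.5-fold or more. Bcl6, a repressor that STAT5 lowers in several cell types, averaged 11.56 ± 0.71 in S5 and 11.66 ± 1.08 in WT (SD, n = 4 each), and its pooled difference of -0.10 did not pass (adjusted p = 0.59). Its difference was -0.43 without and 0.23 with the hormone (adjusted p = 0.0199 and 0.127, limma), and only the first passed. The change between these values, 0.66, did not pass (adjusted p = 0.08 for the interaction, limma). Among the 25 measured targets of STAT5 or growth hormone, 2 rose and 4 fell at least 2-fold, and the median was -0.03. Spry1, an inhibitor of receptor kinase signalling, read 2.12 to 2.52 in S5 and 8.03 to 8.93 in WT, at least 22.9-fold lower in S5 (adjusted p = 1.5e-06), and its relative Spry2 fell 1.59-fold (adjusted p = 0.00053). The cell cycle inhibitor Cdkn1b rose 1.27-fold (adjusted p = 0.0028), with overlapping arrays.

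The promoter of Cish is shown because its pooled value hides opposite differences without and with the hormone. The stretch runs from 250 bases before to 50 bases after the annotated start, from RefSeq's GRCm38.p6, chr9:107296409-107296708, on the + strand. Capitals mark matches to TTCNNNGAA, searched on both strands (the letters read the same on both).
Cish promoter: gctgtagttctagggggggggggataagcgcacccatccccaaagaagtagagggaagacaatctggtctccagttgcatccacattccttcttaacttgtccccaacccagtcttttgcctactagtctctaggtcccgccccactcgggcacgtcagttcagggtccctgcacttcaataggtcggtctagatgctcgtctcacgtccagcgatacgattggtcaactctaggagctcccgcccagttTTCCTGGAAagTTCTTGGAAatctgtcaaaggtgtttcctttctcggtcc
The matches begin at positions 1 and 12, where the annotated start base counts as 1. Across RefSeq, 2726 of 32851 promoters of this length hold TTCNNNGAA, or 8.3%, and 7 of the 27 promoters found for 20 of the measured targets do, or 25.9%. Socs2 is not in the table. A match is only a match of letters, and binding was not measured here.

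**Figure D1:**
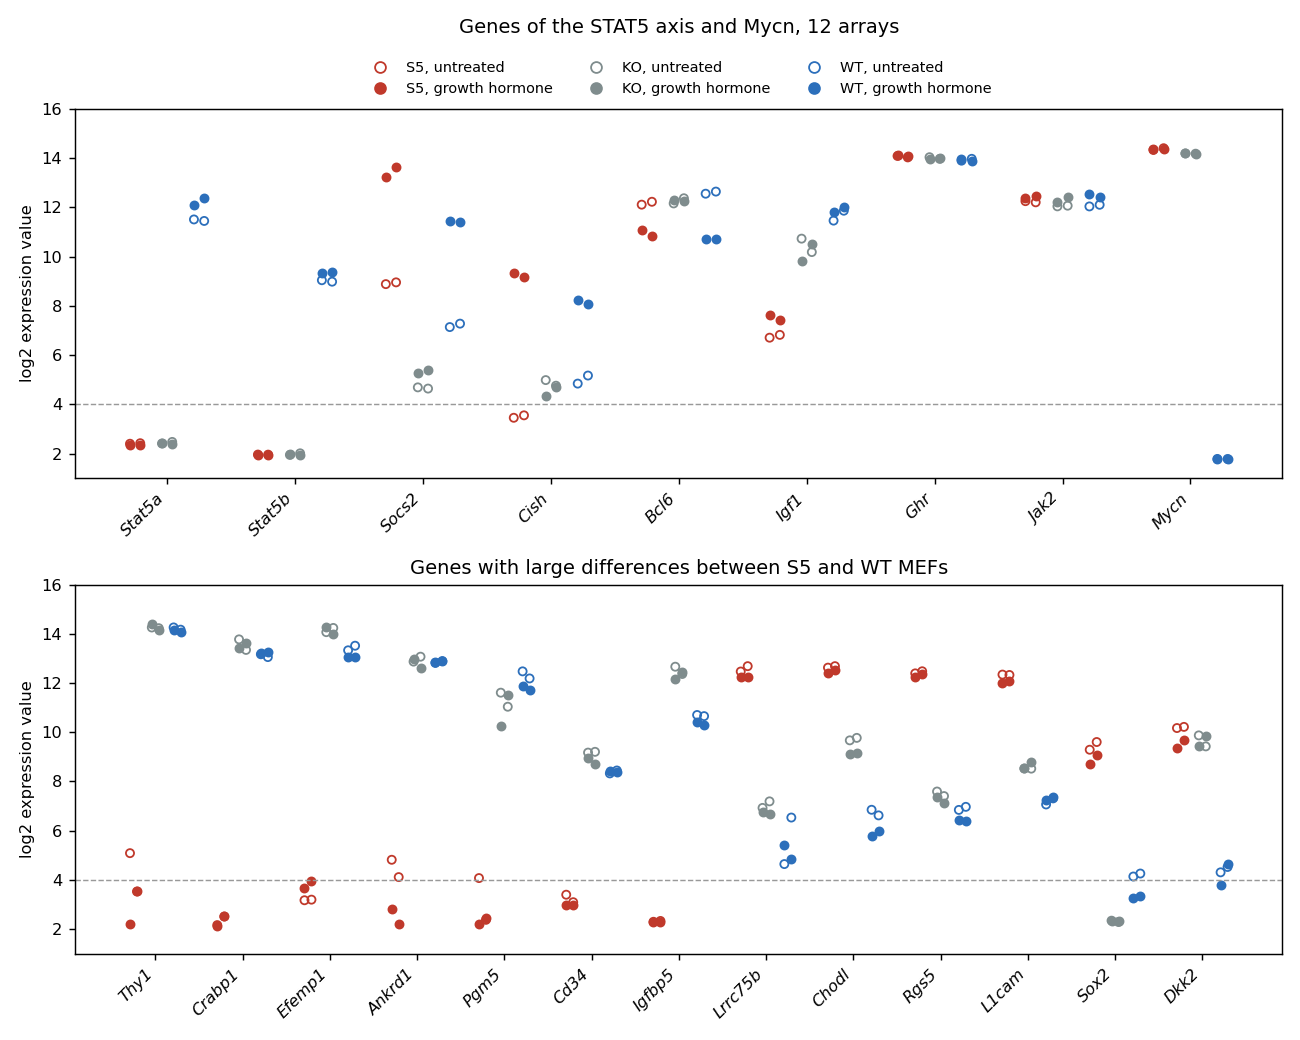
Log2 expression value (y axis) on each of the 12 arrays for genes of the STAT5 axis and Mycn (upper panel) and for genes with large differences (lower panel). Red is S5, grey is KO and blue is WT, open circles are untreated and filled circles hormone-treated arrays, and the dashed line marks 4, below which values were treated as low. Stat5a is shown by the probe set tested only. Socs2 and Cish change with the hormone in S5 and WT, Igf1 lies at 6.71 to 7.62 in S5 against 11.46 to 12.01 in WT, and Mycn lies above 14 in S5 and KO and below 2 in WT.

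The largest rise in S5 was that of Mycn, a transcription factor of the MYC family that drives growth of embryonic cells. It read 14.34, 14.41, 14.36 and 14.36 on the S5 arrays, 14.19, 14.18, 14.23 and 14.17 on the KO arrays and 1.78, 1.78, 1.79 and 1.76 on the WT arrays. S5 was at least 1321-fold above WT (adjusted p = 3e-11), and the KO arrays lay far above WT as well. This signal stands on 1 probe set: the other 2 Mycn probe sets read 2.01 to 2.36 on the S5 arrays and 2.03 to 2.57 on the WT arrays. What part of the transcript each probe set reads was not analysed here.

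Other large rises were of signalling and membrane genes. Chodl, a membrane lectin, read 12.62, 12.68, 12.42 and 12.54 on the S5 arrays and 6.85, 6.62, 5.79 and 5.97 on the WT arrays, and was 76.6-fold higher in S5 (adjusted p = 1.9e-06), with KO arrays between them at 9.10 to 9.77. Rgs5, a brake of G protein signalling known from pericytes, read 12.39, 12.48, 12.23 and 12.36 on the S5 arrays and 6.84, 6.97, 6.44 and 6.40 on the WT arrays, 52.1-fold higher in S5 (adjusted p = 2.5e-07). L1cam, a cell adhesion protein of neurons, read 12.34, 12.33, 12.01 and 12.07 on the S5 arrays and 7.06, 7.31, 7.26 and 7.38 on the WT arrays, 30.6-fold higher in S5 (adjusted p = 1.1e-06). The S5 arrays lay close together in each of these genes, and arrays without overlap were a condition of the ranking. Lrrc75b, a leucine-rich repeat gene, rose 133-fold (adjusted p = 4.7e-05) and Pgbd5, a gene derived from a transposase, 121-fold (adjusted p = 8.5e-06).

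The subunit genes of voltage-gated calcium channels Cacna2d3 and Cacna1h were at least 79.3-fold and 60.2-fold higher in S5, and the calcium-binding proteins Caps2 and Efhd1 at least 56.7-fold and at least 50.3-fold higher (adjusted p between 4.3e-08 and 7.9e-08 for the 4 genes). Cacna2d3 read 10.45, 10.40, 10.18 and 10.21 on the S5 arrays, against 2.79, 2.59, 2.67 and 2.50 on the WT arrays. It belongs to a group that was low in both other genotypes: Cacna2d3, Caps2, Efhd1, the epidermal kinase Ripk4, the synaptic scaffold Rims2, the cardiac T-box factor Tbx20, the tubulin-binding Tppp, the phosphodiesterase Gdpd2, the repressor Prdm6 and Speer4cos all lay below 4 on every KO and WT array and above 7 on every S5 array. These 10 rises were of at least 23.5-fold to at least 79.3-fold.

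Secreted factors and enzymes were also among the 15 largest rises. Fgf5, a fibroblast growth factor that ends the growth phase of hair follicles, rose 53-fold (adjusted p = 5.4e-05). The forkhead factor Foxq1 rose 60.0-fold (adjusted p = 0.00026). With each value below 4 set to 4 these rises were 42.3-fold and 37.6-fold. The phospholipase Plb1 rose 81.8-fold, the peptidase Cpm 61-fold and Aard 54.1-fold (adjusted p between 4.6e-06 and 0.0001). With each value below 4 set to 4 they rose 34.2-fold, 52.7-fold and 39.9-fold. Among genes at 6 or above on every KO array, Dkk2, a secreted Wnt antagonist, read 10.17, 10.22, 9.34 and 9.67 on the S5 arrays, 9.87, 9.42, 9.43 and 9.83 on the KO arrays and 4.31, 4.52, 3.80 and 4.63 on the WT arrays. It was 46.3-fold above WT (adjusted p = 1e-05), while S5 minus KO was 0.21 (adjusted p = 0.44). The glycosyltransferase Galnt13, the microtubule-binding Map7, the matrix protein Adamtsl3, the bone proteoglycan Omd, the PR-domain factor Prdm8 and the neuronal membrane protein Slitrk5 also rose, by 17-fold to 27.4-fold (adjusted p between 5e-07 and 0.00026).

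The 15 largest falls, ranked with a level set to 4 only where all 4 arrays of a genotype lay below it, included Thy1, a surface protein by which fibroblasts are often sorted. It read 5.09, 3.53, 2.20 and 3.55 on the S5 arrays, 14.26, 14.23, 14.39 and 14.14 on the KO arrays and 14.26, 14.17, 14.15 and 14.07 on the WT arrays. Only 1 S5 array lay above 4, and S5 was 1519-fold, or 948-fold with each value below 4 set to 4, below WT (adjusted p = 2.3e-05) and below every KO array (adjusted p = 2.3e-05 for S5 minus KO). Of the 15, 12 were at 6 or above on every KO array.

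These 12 genes cover several functions. Crabp1, which binds retinoic acid in the cytoplasm, read 2.16, 2.51, 2.14 and 2.54 on the S5 arrays and 13.17, 13.05, 13.23 and 13.27 on the WT arrays, at least 580.3-fold lower in S5 (adjusted p = 7.8e-08). Efemp1, the matrix protein fibulin-3, read 3.17, 3.20, 3.66 and 3.97 on the S5 arrays and 13.33, 13.52, 13.05 and 13.05 on the WT arrays, at least 603-fold lower (adjusted p = 1.4e-06). Ankrd1, a nuclear protein that stretch and the coactivator YAP raise in many cells, read 4.82, 4.11, 2.83 and 2.20 on the S5 arrays and 12.81, 12.89, 12.83 and 12.89 on the WT arrays, 661-fold lower, or 395-fold with each value below 4 set to 4 (adjusted p = 2.3e-05). Arrays without overlap were a condition of the ranking, and of these 3 genes Ankrd1 had the most spread S5 values. Pgm5, a protein of adherens junctions in muscle, fell 627-fold, or 264-fold with each value below 4 set to 4 (adjusted p = 1.1e-05). The protease inhibitor Ctla2a, the ribosomal protein paralog Rpl39l, the receptor phosphatase Ptprz1 and the prostaglandin E synthase Ptges fell 372-fold to 386-fold, as lower bounds for Rpl39l and Ptprz1 and with 212-fold for Ptges when each value below 4 was set to 4 (adjusted p between 2.2e-08 and 8.5e-05). Rpl39l has close relatives among ribosomal protein genes, so its probe set may read other transcripts too. C1qb, Laptm5, Lyz2 and Ctss, the other members of the 15 largest falls beside Hoxd8 and Hoxc8, are genes of macrophages and are described with those markers.

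Hox genes, which give cells of the body axis and limbs their position, split by cluster. Of 33 measured Hox genes, 18 fell and 4 rose at least 2-fold, and 8 lay below 4 on all S5 and WT arrays. The median over the 33 was -2.60, or -1.07 with low levels set to 4. All 9 measured Hoxb genes lay below 4 on every S5 array, and 6 of them fell. All 7 measured Hoxc genes did so too, and 6 fell.

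In the Hoxc cluster, Hoxc8 read 2.46, 2.92, 2.52 and 2.49 on the S5 arrays, 13.83, 13.97, 13.85 and 13.81 on the KO arrays and 12.65, 12.63, 12.54 and 12.41 on the WT arrays, at least 377-fold lower in S5 than in WT (adjusted p = 7e-08). Hoxc5 fell at least 207-fold, Hoxc4 at least 96-fold, Hoxc10 at least 79.8-fold, Hoxc9 at least 27.2-fold and Hoxc13 at least 3.19-fold. Of these, Hoxc13 was also low on every KO array, at 2.57 to 2.72. In the Hoxb cluster, Hoxb6 read 2.11, 2.11, 2.12 and 2.15 on the S5 arrays and 10.32, 10.10, 10.22 and 9.98 on the WT arrays, with KO at 12.06 to 12.16, and fell at least 71.3-fold (adjusted p = 5.1e-08). Hoxb3, Hoxb9, Hoxb5, Hoxb4 and Hoxb2 fell at least 69.1-fold, at least 61.5-fold, at least 57.9-fold, at least 51.7-fold and at least 2-fold. The KO arrays were above the WT arrays in each of these 6 Hoxb genes.

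The Hoxd and Hoxa clusters held both directions. Hoxd13, which patterns the hand and foot, read 13.45, 13.42, 13.40 and 13.42 on the S5 arrays, 2.36, 2.45, 2.41 and 2.32 on the KO arrays and 11.55, 11.72, 11.40 and 11.38 on the WT arrays, 3.76-fold higher in S5 than in WT (adjusted p = 4.8e-06). The cluster members Hoxd8, Hoxd9, Hoxd10 and Hoxd11 fell 469-fold, 299-fold, 31.5-fold and at least 6.21-fold (adjusted p between 1.4e-06 and 3.7e-05). On the S5 arrays 3 of 4 Hoxd8 values and 2 of 4 Hoxd9 values lay below 4, and with each value below 4 set to 4 the falls were 284-fold and 224-fold. In the Hoxa cluster Hoxa11, which patterns the forearm, read 10.17, 10.16, 10.46 and 10.41 on the S5 arrays, 2.33, 2.49, 2.36 and 2.54 on the KO arrays and 7.37, 7.31, 6.59 and 6.62 on the WT arrays, 10.1-fold higher in S5 than in WT (adjusted p = 6.2e-05). Hoxa9 rose 4.28-fold and Hoxa10 rose 2.79-fold (adjusted p = 0.00043 and 7.4e-05), with KO arrays at 3.36 to 5.07 and 2.26 to 3.59.

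At the other end of the cluster, Hoxa3 and Hoxa4 fell 2.1-fold and 2.47-fold (adjusted p = 0.0011 and 6.6e-07), and Hoxa5 had a difference of -0.68 that did not pass (adjusted p = 0.053). Hoxa2 passed with a difference of -0.36 (adjusted p = 0.037) at levels near 4, and turned to 0.60 after quantile normalization. Its call was lost without any 1 of 5 of the 8 arrays (adjusted p between 0.0634 and 0.0842). Hoxd3 read 2.21 to 2.28 in S5 and 3.92 to 5.84 in WT (adjusted p = 0.0029), at least 1.79-fold lower in S5, a call that ended with values below 4 set to 4 (adjusted p = 0.074). The 4 Hox genes that rose at least 2-fold were thus members 9 to 11 of Hoxa and member 13 of Hoxd, of which Hoxa10, Hoxa11 and Hoxd13 lay below 4 on every KO array and Hoxa9 on 2 of 4.

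**Figure D2:**
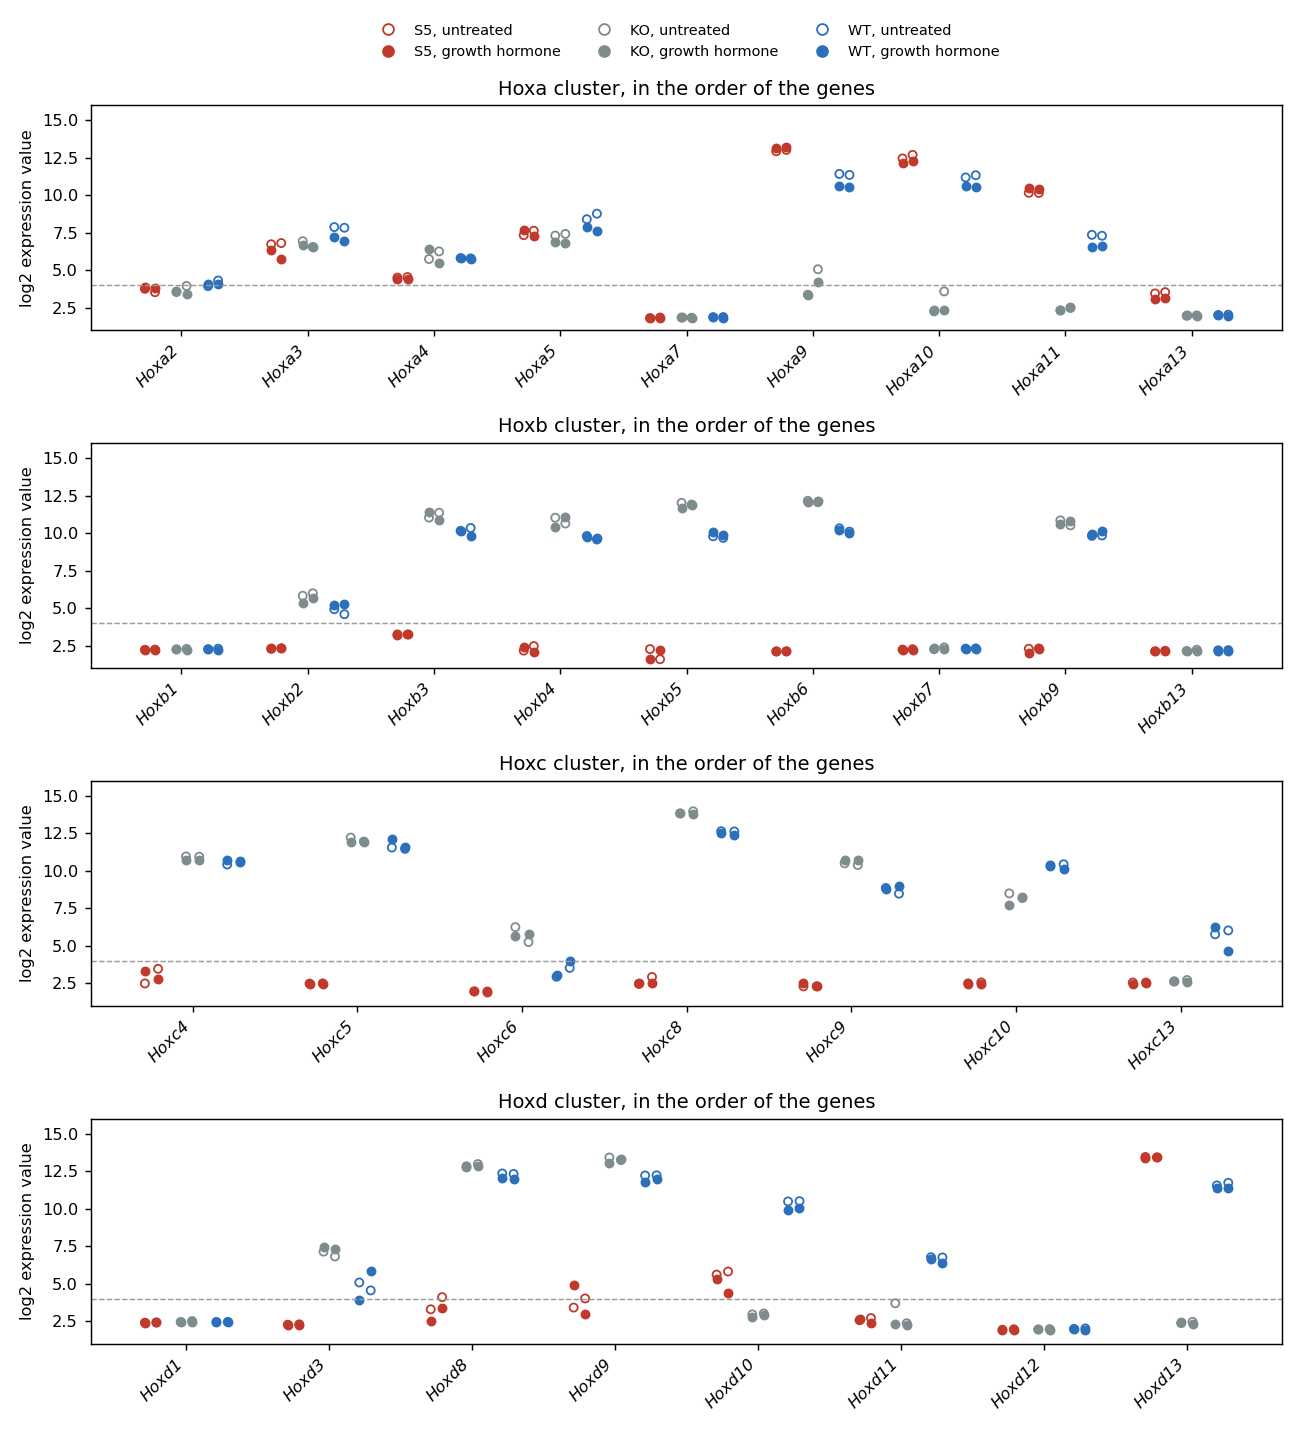
Log2 expression value of every measured Hox gene (y axis) on the 12 arrays, in cluster order along the x axis, with S5 in red, KO in grey and WT in blue, open circles untreated and filled circles hormone-treated. The Hoxb and Hoxc genes lie below the dashed line at 4 on all S5 arrays, while Hoxa9, Hoxa10, Hoxa11 and Hoxd13 lie higher in S5 than in WT.

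Among 46 other patterning transcription factors, 10 rose and 14 fell at least 2-fold, with a median of -0.04, beside 7.52% and 7.97% of all genes. Pax1, which patterns the spine and shoulder girdle, read 2.51, 2.07, 2.57 and 2.50 on the S5 arrays and 10.45, 10.08, 10.13 and 10.25 on the WT arrays, at least 75-fold lower in S5 (adjusted p = 5e-07), with KO arrays at 12.27 to 12.72. Zic1, a zinc finger factor of the neural tube and somites, read 2.64, 2.65, 2.62 and 2.64 on the S5 arrays and 9.99, 10.14, 9.83 and 9.75 on the WT arrays, at least 60.8-fold lower (adjusted p = 5.1e-08), and was as low on KO arrays (2.61 to 2.70). All S5 arrays of both genes were below 3. A pair of forkhead factors of mesenchyme moved in opposite directions: Foxf1 fell at least 62.6-fold and Foxf2 rose at least 43.9-fold (adjusted p = 1.6e-07 and 2.6e-06). Foxf1 read 2.72 to 3.04 in S5 and 9.82 to 10.12 in WT, and Foxf2 read 8.88 to 10.02 in S5 and 2.75 to 3.98 in WT.

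Retinoic acid genes, which act with Hox genes in the embryo, moved in both directions. Of 20 measured genes 4 rose and 5 fell at least 2-fold, with a median of 0.00. Beside the fall of Crabp1, its relative Crabp2, which carries retinoic acid to the nuclear receptor, read 13.19, 13.18, 13.07 and 13.10 on the S5 arrays and 11.87, 11.69, 11.57 and 11.61 on the WT arrays, 2.73-fold higher in S5 (adjusted p = 4.4e-06). The retinol dehydrogenase Rdh10 rose 2.99-fold (adjusted p = 5.5e-05) and the receptor Rarg 1.8-fold (adjusted p = 3.5e-05).

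The label of embryonic fibroblasts was checked against 23 fibroblast and mesenchymal markers. All 23 were above 4 on at least 1 WT array, and Cd34 was the 1 marker below 4 on every S5 array. General mesenchymal genes were high in both genotypes: the filament protein Vim averaged 14.90 ± 0.06 in S5 and 14.82 ± 0.05 in WT (SD, n = 4 each; adjusted p = 0.14), and S100a4 averaged 14.63 ± 0.04 in S5 and 14.58 ± 0.02 in WT (adjusted p = 0.14). The collagen receptor Ddr2 had a difference of -0.03 (adjusted p = 0.58). The limb mesenchyme factors Prrx1 and Prrx2 rose 1.25-fold and 2.57-fold (adjusted p = 0.00097 and 0.00066), and Twist1 rose 1.17-fold (adjusted p = 0.043), with overlapping arrays for Twist1. With the mean of probe sets per gene the Prrx1 call ended (adjusted p = 0.0894). The Twist1 call was lost without any 1 of 7 of the 8 arrays (adjusted p between 0.0692 and 0.108, limma), all but untreated WT replicate 1.

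Yet 11 of the 23 markers fell at least 2-fold, 1 rose, and the median was -0.94, against -0.02 over all genes. The mean of the 23 markers was 9.20 to 9.53 on S5 arrays, 10.72 to 10.75 on KO arrays and 11.11 to 11.20 on WT arrays. Besides Thy1, the falls were largest for Fap, Cd34 and Twist2. Fap, a surface protease of activated fibroblasts, read 4.04, 3.46, 4.28 and 3.60 on the S5 arrays and 11.06, 10.76, 10.55 and 10.29 on the WT arrays. It was 113-fold lower in S5, or 96.0-fold with each value below 4 set to 4 (adjusted p = 7.7e-06). Cd34, a surface glycoprotein of fibroblast and vascular precursors, read 3.40, 3.09, 2.97 and 2.97 on the S5 arrays, 9.17, 9.20, 8.96 and 8.70 on the KO arrays and 8.33, 8.45, 8.41 and 8.38 on the WT arrays, at least 21-fold lower in S5 than in WT (adjusted p = 4.4e-07). In both genes the S5 arrays lay far below the WT arrays.

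Twist2, a factor of dermal fibroblasts, fell 23.9-fold (adjusted p = 0.00011), the small proteoglycans Lum and Dcn fell 11.4-fold and 9.6-fold (adjusted p = 9.5e-06 and 3.5e-05) and the factor Zeb2 fell 4.27-fold (adjusted p = 3.7e-05). The growth factor receptors Pdgfra and Pdgfrb fell 2.7-fold and 1.92-fold (adjusted p = 0.00039 and 0.00011). The matrix fibulins Fbln1 and Fbln2 fell 2.26-fold and 2.44-fold, and the surface nucleotidase Nt5e 2.4-fold (adjusted p between 6.4e-05 and 0.00021). The co-receptor Eng fell 1.8-fold (adjusted p = 0.036) and the factors Snai1 and Snai2 1.67-fold and 1.17-fold (adjusted p = 0.0025 and 0.046), both with overlapping arrays. Leaving out single arrays ended the calls of Eng (5 of 8 arrays, adjusted p between 0.0648 and 0.0908) and Snai2 (6 of 8 arrays, between 0.0539 and 0.12). Zeb1 and the proteoglycan Cspg4 did not pass (adjusted p = 0.82 and 0.71).

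**Figure D3:**
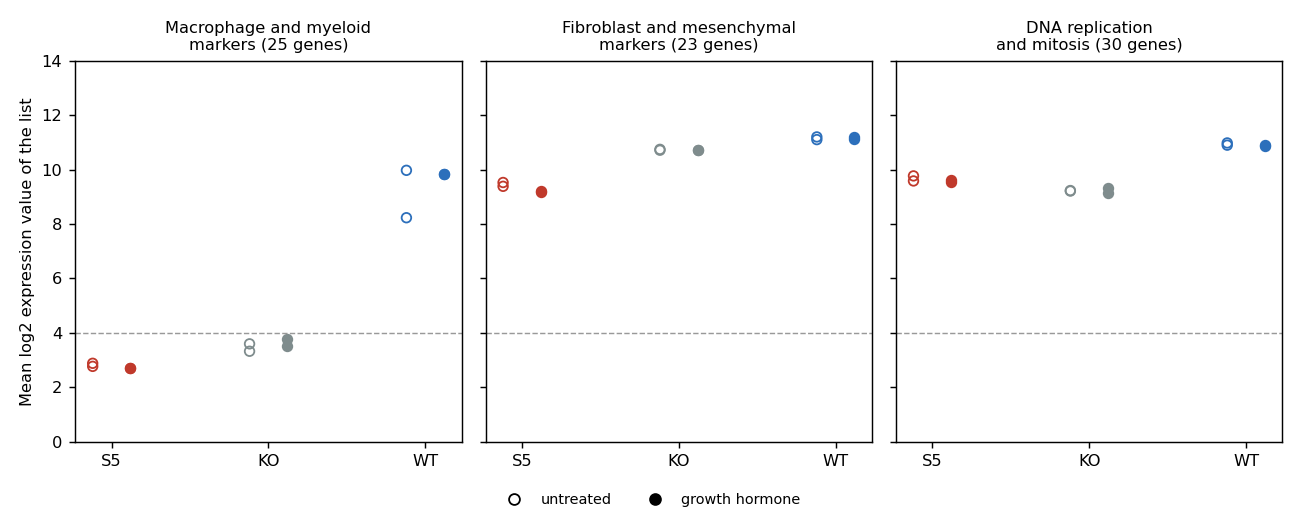
Mean log2 expression value of the members of a list (y axis) on each array of S5, KO and WT cells for macrophage and myeloid markers, fibroblast and mesenchymal markers, and genes of DNA replication and mitosis. Open circles are untreated and filled circles hormone-treated arrays, and the dashed line marks 4. The macrophage mean is 2.72 to 2.88 in S5, 3.33 to 3.76 in KO and 8.23 to 9.98 in WT, and the other means are lower in S5 than in WT.

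Matrix genes fell more often than they rose. Of 20 collagen genes 1 rose and 3 fell at least 2-fold (5% and 15%, median -0.11), beside 7.52% and 7.97% of all genes. Col15a1, a basement membrane collagen, read 2.15, 2.06, 2.17 and 2.02 on the S5 arrays and 8.48, 8.16, 8.34 and 8.18 on the WT arrays, at least 19.6-fold lower in S5 (adjusted p = 1.9e-07), and Col6a3, a chain of the microfibrillar collagen VI, fell 12.6-fold (adjusted p = 1.7e-05). Col14a1 and Col11a1 fell 1.8-fold and 1.63-fold (adjusted p = 5.8e-05 and 6.8e-05). Of 28 matrix glycoproteins and proteoglycans 2 rose and 8 fell at least 2-fold (median -0.36). Fbn2, an elastic microfibril protein of the embryo, fell 11.5-fold (adjusted p = 7.2e-06). The laminin chains differed in direction, with Lama4 4.9-fold lower and Lama5 5.54-fold higher in S5 (adjusted p = 6.6e-06 and 7e-06). Lama5 read 12.43, 12.35, 12.95 and 12.65 on the S5 arrays and 10.07, 9.88, 10.18 and 10.37 on the WT arrays, without overlap.

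Of 20 matrix proteases and inhibitors 1 rose and 8 fell at least 2-fold, with a median of -0.71. Mmp9, the gelatinase that macrophages and fibroblasts secrete, read 4.25, 5.39, 4.11 and 4.12 on the S5 arrays, 6.57, 6.91, 7.12 and 6.68 on the KO arrays and 11.92, 11.87, 12.04 and 12.04 on the WT arrays, 181-fold lower in S5 than in WT (adjusted p = 1.1e-05), and the part of the macrophage signal in this difference was not tested. The inhibitor Timp1 fell 2.32-fold (adjusted p = 1e-05), and its relative Timp2 rose 1.31-fold (adjusted p = 2.3e-05). Mmp11, a protease of stromal cells, rose 2.5-fold (adjusted p = 2.2e-05).

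Of 23 cell adhesion receptors 4 rose and 7 fell at least 2-fold (median -0.25). Icam1, the ligand of leukocyte integrins, read 2.50, 2.54, 2.33 and 3.36 on the S5 arrays, 9.49, 9.26, 10.22 and 10.45 on the KO arrays and 10.32, 10.37, 13.32 and 13.41 on the WT arrays, at least 231-fold lower in S5 than in WT (adjusted p = 7.1e-05). Cd44, the hyaluronan receptor, read 10.88, 10.86, 11.09 and 10.95 on the S5 arrays and 13.57, 13.67, 13.99 and 14.03 on the WT arrays, 7.31-fold lower (adjusted p = 1.3e-06), with KO arrays at 13.74 to 13.94. Neither gene overlapped between S5 and WT. The cadherins went opposite ways: Cdh11, the cadherin of mesenchyme, fell 2.07-fold and Cdh13, which lacks an inner domain, rose 5.68-fold (adjusted p = 6.2e-06 and 1.5e-06).

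Genes of the lineages that fibroblasts can resemble moved unevenly. Of 15 smooth muscle contractile genes none rose and 5 fell at least 2-fold (median -0.26). Mylk, the kinase that starts contraction, read 7.26, 7.82, 7.24 and 7.28 on the S5 arrays and 12.81, 13.01, 12.40 and 12.38 on the WT arrays, 38.1-fold lower in S5 (adjusted p = 2.1e-06), and the contractile proteins Actg2, Myh11 and Cnn1 fell 8.16-fold, 5.25-fold and 4.92-fold (adjusted p between 3.3e-06 and 9e-05). S5 nevertheless lay above KO in these 3, by 3.29, 4.64 and 1.30 on the log2 scale (adjusted p between 6.4e-06 and 0.00016). Of 15 cartilage and bone genes 4 rose and 1 fell at least 2-fold (median -0.04). Col2a1, the main cartilage collagen, read 11.19, 10.95, 11.16 and 11.02 on the S5 arrays, 3.31, 3.33, 3.33 and 3.29 on the KO arrays and 8.37, 8.23, 9.05 and 8.26 on the WT arrays, 6.07-fold higher in S5 than in WT (adjusted p = 0.00011). The mineralization inhibitor Mgp rose 1.47-fold (adjusted p = 5.1e-05).

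Of 13 adipocyte genes 1 rose and 4 fell at least 2-fold (median -0.08). Lpl, the lipase that frees fatty acids from lipoproteins, read 6.43, 6.82, 6.30 and 7.71 on the S5 arrays, 12.34, 12.06, 11.91 and 12.12 on the KO arrays and 13.33, 13.63, 13.63 and 13.45 on the WT arrays, 104-fold lower in S5 than in WT (adjusted p = 2.2e-05). Cebpa, a factor that starts fat cell formation, fell 31.5-fold and the preadipocyte protein Dlk1 fell 4.24-fold (adjusted p = 5.9e-05 and 2e-05). Cd36, a fatty acid carrier that macrophages also make, fell at least 6.83-fold (adjusted p = 0.00031).

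In the Wnt pathway, 8 of 30 measured ligands, receptors and antagonists rose and 6 fell at least 2-fold, with a median of 0.02. Its secreted antagonists moved in both directions. Dkk3 read 3.02, 3.05, 3.02 and 3.72 on the S5 arrays and 11.77, 11.61, 11.52 and 11.58 on the WT arrays, at least 197-fold lower in S5 (adjusted p = 1.1e-06), while its relative Dkk2 rose. Sfrp1 read 6.90 to 7.40 on the S5 arrays and 12.16 to 12.57 on the WT arrays, 37.1-fold lower (adjusted p = 4.8e-07), while Sfrp2 read 13.61, 13.49, 12.78 and 12.90 on the S5 arrays and 9.81, 9.58, 9.43 and 9.11 on the WT arrays, 13.1-fold higher (adjusted p = 3.3e-06). Both Sfrp genes encode secreted proteins that bind Wnt ligands, and neither overlapped between the genotypes. Rspo2, an agonist that raises the level of Wnt receptors, rose 6.75-fold (adjusted p = 3.7e-06).

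Of 30 TGF-beta and BMP ligands, antagonists and targets 4 rose and 4 fell at least 2-fold (13.3% each, median -0.02). Over all genes the shares were 7.52% and 7.97%. Id3, a BMP target that blocks differentiation factors, rose 3.66-fold (adjusted p = 0.00049). The co-receptor Tgfbr3 fell 4.59-fold, the receptor Tgfbr2 1.53-fold and the ligand Gdf10 at least 6.42-fold (adjusted p = 2.8e-05, 0.00013 and 4e-05).

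Of 16 measured genes of the IGF system 2 rose and 6 fell at least 2-fold (median -0.22). Besides Igf1, the fetal growth factor Igf2 read 7.07, 7.15, 6.83 and 7.16 on the S5 arrays, 3.12, 2.49, 2.47 and 2.65 on the KO arrays and 13.26, 13.35, 13.31 and 13.52 on the WT arrays. S5 was 79.2-fold below WT (adjusted p = 2.8e-07) and above KO by 4.37 on the log2 scale (adjusted p = 6.2e-06). Among the carriers of these factors, Igfbp5 read 2.30, 2.33, 2.29 and 2.29 on the S5 arrays and 10.70, 10.65, 10.42 and 10.29 on the WT arrays, at least 91.5-fold lower in S5 (adjusted p = 4.6e-08), and Igfbp7 fell 3.27-fold (adjusted p = 3e-06). Igfbp2 read 14.28, 14.19, 14.20 and 14.19 on the S5 arrays and 11.86, 11.69, 11.73 and 11.95 on the WT arrays, 5.31-fold higher (adjusted p = 2.6e-06). Of 18 imprinted growth regulators, which are read from 1 parental copy, 3 rose and 5 fell at least 2-fold (median -0.31), with Nnat at least 4.32-fold and Peg3 2.43-fold lower in S5 (adjusted p = 1.6e-06 and 9.4e-06).

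Macrophage and myeloid markers formed the list with the largest median difference. Of 25 measured markers 22 fell at least 2-fold (20 to 22 over the alternative settings) and none rose, with a median of -7.47, or -5.80 with low levels set to 4. Their mean per array was 2.77, 2.88, 2.73 and 2.72 in S5, 3.60, 3.33, 3.52 and 3.76 in KO and 8.23, 9.98, 9.85 and 9.83 in WT. All 25 except Csf1r, Cd68 and Cd14 lay below 4 on every S5 array, and all except Itgam lay above 4 on at least 1 WT array. In these bulk samples fewer cells of a type and less RNA per cell cannot be told apart.

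Lyz2, the lysozyme of myeloid cells, read 3.03, 3.17, 3.02 and 2.88 on the S5 arrays, 6.96, 5.85, 6.56 and 7.47 on the KO arrays and 12.44, 13.71, 13.49 and 13.66 on the WT arrays, at least 642-fold lower in S5 than in WT (adjusted p = 3.4e-06). C1qb, a chain of the first complement component that macrophages secrete, read 2.23, 2.26, 2.19 and 2.18 on the S5 arrays and 13.41, 14.04, 13.80 and 13.98 on the WT arrays, at least 898-fold lower (adjusted p = 1.5e-07), with KO arrays at 6.50 to 7.15. Csf1r, the receptor that macrophages need to survive, read 6.29, 6.87, 4.66 and 5.02 on the S5 arrays and 12.99, 13.77, 13.89 and 13.88 on the WT arrays, 243-fold lower (adjusted p = 6.8e-05). In each of them the WT arrays were far above the S5 arrays, and untreated WT replicate 1 was the lowest WT array.

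The other 19 falls were at least 2.35-fold to at least 487-fold. They included the leukocyte antigen Ptprc (at least 55.7-fold), the surface receptors Adgre1 and Mrc1 (at least 67.8-fold and at least 57.8-fold), the signalling adaptors Tyrobp and Fcer1g (at least 300.0-fold and at least 115-fold), the lysosomal protein Laptm5 (at least 487-fold), the perforin-like Mpeg1 (at least 329-fold) and the lectin Clec4d (at least 327-fold). Cd53, Ms4a7, Msr1, Itgb2, Aif1, Fcgr3, C1qc and C1qa fell at least 134-fold, at least 131-fold, at least 43-fold, at least 22.6-fold, at least 14.5-fold, at least 12.9-fold, at least 46.6-fold and at least 2.35-fold. The C1qa call ended with values below 4 set to 4 (adjusted p = 0.0671). Cd68, a lysosomal glycoprotein that other cells also make, fell 9.57-fold and Cd14, a co-receptor of lipopolysaccharide, fell 26-fold. Fcgr1 read 2.21, 7.05, 6.11 and 5.81 on the WT arrays and fell at least 2.45-fold (adjusted p = 0.043), with 1 WT array in the low mode, and the call was lost without any single array except that one (adjusted p between 0.0715 and 0.108). The remaining markers Itgam, Cx3cr1 and Spi1 did not pass (adjusted p = 0.13, 0.1 and 0.15), and Itgam lay below 2.5 on all 8 arrays.

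Immune response genes fell in S5 beside these markers, and the part of the macrophage signal in them was not tested. Of 27 interferon response genes none rose and 13 fell at least 2-fold, with a median of -1.72, or -0.66 with low levels set to 4. Cxcl10, a chemokine of the interferon response, read 2.30, 2.08, 8.27 and 8.34 on the S5 arrays, 2.81, 2.42, 6.16 and 6.37 on the KO arrays and 8.91, 8.90, 13.78 and 13.82 on the WT arrays, 68.7-fold lower in S5 than in WT, or 36.7-fold with each value below 4 set to 4 (adjusted p = 1.4e-05). All 3 genotypes had higher values on hormone-treated arrays. The antiviral Oasl2 fell at least 21.3-fold, the GTPase Gbp2 27.2-fold and the membrane protein Bst2 3.84-fold (adjusted p between 7.9e-06 and 7.1e-05).

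Of 22 NF-kB and inflammatory genes none rose and 11 fell at least 2-fold (median -2.43, or -2.18 with low levels set to 4). Bcl3, an NF-kB cofactor, read 2.91, 4.33, 8.18 and 8.08 on the S5 arrays and 8.48, 8.38, 12.04 and 12.13 on the WT arrays, 20.9-fold lower in S5 (adjusted p = 0.00015), with KO arrays at 3.10 to 7.40. Ccl7, a chemokine for monocytes, read 6.69, 6.78, 10.68 and 10.31 on the S5 arrays and 11.29, 10.91, 13.35 and 13.13 on the WT arrays, 11.7-fold lower (adjusted p = 0.00041). Both were higher on hormone-treated than on untreated arrays of either genotype. Ptgs2, the inducible prostaglandin synthase, fell 2.88-fold (adjusted p = 6.6e-05).

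Of 16 complement genes 4 rose and 8 fell at least 2-fold (median -1.90, or -0.62 with low levels set to 4), and 3 of the 8 are the C1q chains named among the macrophage markers. The receptor C5ar1 fell at least 368-fold (adjusted p = 8.7e-07), with KO arrays at 2.47 to 3.18. The membrane regulators that protect cells from complement differed in direction. Cd59a read 2.48, 2.94, 2.70 and 3.09 on the S5 arrays, 9.84, 9.70, 9.36 and 9.88 on the KO arrays and 8.67, 8.74, 8.94 and 9.07 on the WT arrays, at least 28.9-fold lower in S5 than in WT (adjusted p = 1.2e-06), and Cd55 rose 3.54-fold (adjusted p = 1.8e-05). The part of the macrophage signal in the falls of C5ar1 and Cd59a was not tested.

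Of 17 antigen presentation genes 1 rose and 5 fell at least 2-fold (median -0.54, or -0.02 with low levels set to 4). The class I genes H2-K1 and H2-D1 fell 4.63-fold and 2.03-fold, their activator Nlrc5 4.81-fold and the peptide trimming enzyme Erap1 2.24-fold (adjusted p between 6.6e-05 and 0.00027). H2-K1 and H2-D1 are close relatives, and their probe sets may share transcripts. Of 25 lysosomal genes 1 rose and 4 fell at least 2-fold, with a median of 0.11. Ctss, the cathepsin of antigen-presenting cells, fell at least 408-fold (adjusted p = 2.8e-06), Ctsc 27.6-fold and Ctsk, the cathepsin of bone-resorbing cells and fibroblasts, 14.3-fold (adjusted p = 1.5e-05 and 6.6e-05). Ctsk was high on the KO arrays, at 10.02 to 10.86. Ctsf rose 2.96-fold (adjusted p = 1.5e-05).

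Genes of DNA replication and mitosis fell almost throughout. Of 30 measured genes 28 passed as lower in S5 and none as higher, beside 20.3% and 23.7% of all genes. Of the 28, 23 fell at least 2-fold, and the median over the 30 was -1.29. The mean of the 30 genes was 9.55 to 9.77 on S5 arrays, 9.15 to 9.34 on KO arrays and 10.89 to 10.98 on WT arrays. Bub1b, a kinase of the spindle checkpoint, read 8.92, 8.96, 8.98 and 8.91 on the S5 arrays and 10.61, 10.49, 10.51 and 10.64 on the WT arrays, 3.07-fold lower in S5 (adjusted p = 2.3e-06). Mki67, the protein that coats mitotic chromosomes and marks cycling cells, read 11.43, 11.33, 11.60 and 11.54 on the S5 arrays and 12.56, 12.53, 12.60 and 12.68 on the WT arrays, 2.17-fold lower (adjusted p = 6.4e-06). The arrays of each genotype lay close together in both genes, and those of S5 and WT did not overlap. Rrm1, a subunit of the enzyme that makes deoxynucleotides, fell 2.66-fold and Ccne1, the cyclin that starts DNA replication, fell 2.69-fold (adjusted p = 2.8e-05 and 1.7e-05). S5 lay below KO in Ccne1, with S5 minus KO at -0.86 (adjusted p = 0.00044). S5 lay above KO in Mki67 by 2.11 and in Bub1b by 0.93 on the log2 scale (adjusted p = 1.2e-05 and 0.00018).

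The promoters of these last 2 genes are shown because nearly all members of the list moved together, and cell cycle promoters are known for motifs called CHR (TTTGAA) and CCAAT boxes. They come from RefSeq's GRCm38.p6 and run from 250 bases before to 50 after the start site, for Bub1b chr2:118597961-118598260 on the + strand and for Mki67 chr7:135716330-135716629 on the - strand. Capitals mark TTTGAA and CCAAT on either strand, the second also in its reverse form ATTGG.
Bub1b promoter: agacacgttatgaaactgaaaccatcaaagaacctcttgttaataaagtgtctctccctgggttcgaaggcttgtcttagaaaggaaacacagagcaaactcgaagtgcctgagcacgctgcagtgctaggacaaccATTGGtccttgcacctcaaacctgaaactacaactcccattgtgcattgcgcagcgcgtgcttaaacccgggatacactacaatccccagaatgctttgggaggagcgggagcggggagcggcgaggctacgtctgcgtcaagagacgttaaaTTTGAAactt
Mki67 promoter: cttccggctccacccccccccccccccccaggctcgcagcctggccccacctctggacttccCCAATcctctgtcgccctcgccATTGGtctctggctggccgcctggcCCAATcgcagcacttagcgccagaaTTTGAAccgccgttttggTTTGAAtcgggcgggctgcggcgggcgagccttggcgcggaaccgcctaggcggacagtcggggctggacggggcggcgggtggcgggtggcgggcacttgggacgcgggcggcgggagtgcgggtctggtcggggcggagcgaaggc
In Bub1b, TTTGAA begins at position 41 from the start and a CCAAT box at -113. In Mki67, TTTGAA begins at positions -116 and -98 from the start, and CCAAT at -188, -166 and -141. Of all 32851 promoters of this length 17.9% hold TTTGAA and 37.4% hold CCAAT, against 10 and 19 of the 25 promoters found for 24 genes of the list (40% and 76%). These are matches of letters, with no measurement of binding.

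Among 22 p53 targets and inhibitors of cyclin-dependent kinases 2 rose and 2 fell at least 2-fold, with a median of 0.05. Perp, a junction protein that p53 induces, read 13.57, 13.64, 13.49 and 13.44 on the S5 arrays, 13.33, 13.37, 13.18 and 13.21 on the KO arrays and 11.07, 11.12, 10.84 and 10.80 on the WT arrays, 5.97-fold higher in S5 than in WT (adjusted p = 2.5e-07). The p53 ubiquitin ligase Mdm2 rose 1.22-fold and Phlda3 1.38-fold (adjusted p = 0.0014 and 0.0019).

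Of 22 genes of cholesterol and fatty acid synthesis 19 passed as lower and 1 as higher in S5, beside 20.3% and 23.7% of all genes. Of the 22, 5 fell at least 2-fold, and the median was -0.63. Sc5d, a late enzyme of cholesterol synthesis, read 10.54, 10.50, 10.54 and 10.51 on the S5 arrays and 12.02, 11.97, 12.04 and 12.06 on the WT arrays, 2.83-fold lower in S5 (adjusted p = 3.9e-07), and the enzymes Dhcr7, Nsdhl and Cyp51 fell 2.29-fold, 2.12-fold and 1.68-fold (adjusted p between 3.1e-06 and 4.9e-05). Of 23 glycolysis and hypoxia genes none rose and 3 fell at least 2-fold (median -0.14). The glucose transporter Slc2a3 fell at least 13.5-fold and the hexokinase Hk2 12.9-fold (adjusted p = 3.4e-06 and 7.2e-06), while the enzymes Ldha and Pgam1 fell 1.49-fold and 1.28-fold (adjusted p = 3.2e-05 and 0.00018).

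Of 22 glutathione and redox genes 1 rose and 7 fell at least 2-fold (median -0.33). Gpx3, a secreted glutathione peroxidase, read 4.54, 5.22, 5.34 and 4.44 on the S5 arrays, 12.14, 11.88, 12.21 and 12.17 on the KO arrays and 11.84, 11.58, 11.66 and 11.68 on the WT arrays, 112-fold lower in S5 than in WT (adjusted p = 7e-06). Gpx7 and the transferase Gstm2 fell 4.9-fold and 4.7-fold, and the transferase Gstt1 rose 6.87-fold (adjusted p between 8.7e-07 and 3.6e-06). No S5 array of these 4 genes overlapped the WT arrays.

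**Figure D4:**
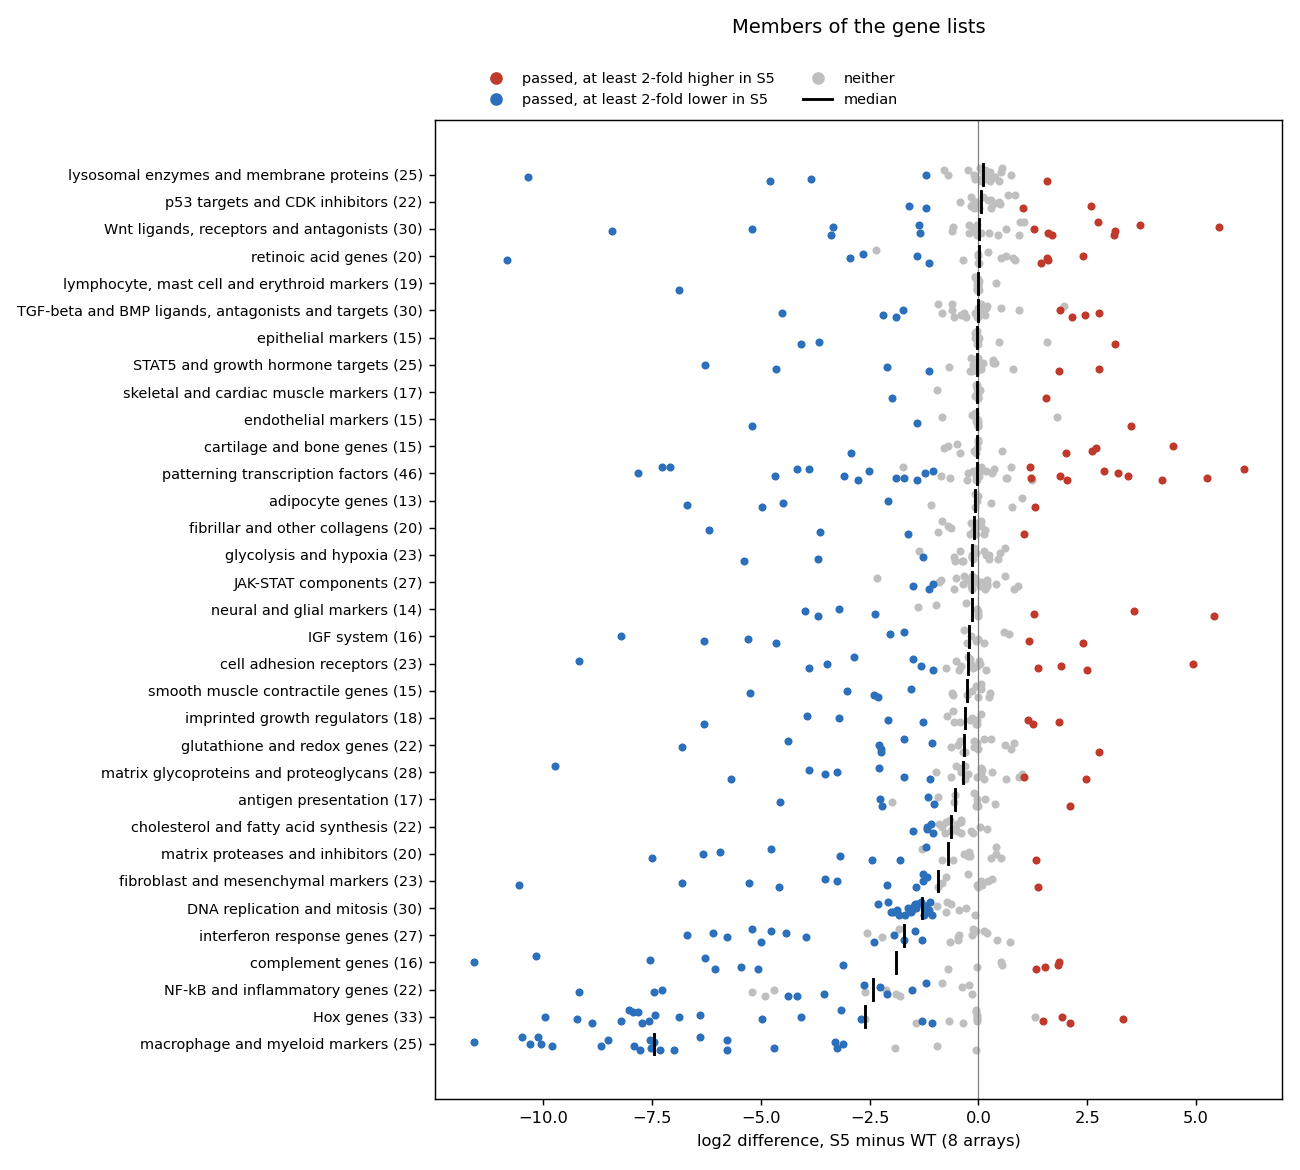
Log2 difference S5 minus WT (x axis) of every measured member of the gene lists (rows, with the number of measured members), ordered by the median, which is drawn as a black bar. Red points rose and blue points fell past the threshold by at least 2-fold, and grey points did neither. Macrophage markers (median -7.47), Hox genes (-2.60) and NF-kB genes (-2.43) lie lowest, and genes of DNA replication and mitosis form a tight group around -1.29. Values are drawn as read. With low levels set to 4, the medians of the first 3 lists are -5.80, -1.07 and -2.18.

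Markers of other cell types, except the neural and glial ones, were mostly low in both genotypes. Of 19 lymphocyte, mast cell and erythroid markers 17 lay below 4 on all S5 and WT arrays, none rose and 1 fell at least 2-fold (median -0.02). That was Pf4, a chemokine of platelets and macrophages, which read 3.42, 5.12, 3.11 and 3.22 on the S5 arrays and 9.26, 10.76, 11.31 and 11.11 on the WT arrays (119-fold lower in S5, adjusted p = 0.00035). Ppbp, its neighbour gene, was above 10 on all 8 arrays and its difference of 0.41 did not pass (adjusted p = 0.12). Of 15 endothelial markers 10 were low on all 8 arrays, 1 rose and 2 fell at least 2-fold (6.67% and 13.3%, median -0.03). Tek, the angiopoietin receptor, rose 11.4-fold and Flt1, a receptor of vascular growth factor, fell 37.1-fold (adjusted p = 0.00087 and 0.00047). With each value below 4 set to 4 Flt1 fell 28.4-fold. Egfl7 fell 2.67-fold (adjusted p = 0.00041), and Erg passed as higher (adjusted p = 0.00079), at least 1.58-fold.

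Of 15 epithelial markers 11 were low on all 8 arrays, 1 rose and 2 fell at least 2-fold (6.67% and 13.3%, median -0.02). Dsp, the desmosome protein, rose 8.79-fold and the keratins Krt18 and Krt19 fell at least 6.15-fold and at least 5.6-fold (adjusted p = 3e-05, 8.6e-05 and 0.00019). Of 17 skeletal and cardiac muscle markers 13 were low on all 8 arrays, with a median of -0.03, and Tnnc1 rose 2.94-fold while Tnnt2 fell 3.98-fold (adjusted p = 3.3e-05 and 5.9e-05). Of 14 neural and glial markers 5 were low on all 8 arrays, 3 rose and 4 fell at least 2-fold (median -0.16). Sox2, a factor of stem and neural precursor cells, read 9.29, 9.60, 8.69 and 9.08 on the S5 arrays, 2.34, 2.29, 2.35 and 2.33 on the KO arrays and 4.14, 4.26, 3.25 and 3.34 on the WT arrays, 42.8-fold higher in S5 than in WT (adjusted p = 1.7e-06). Stmn2, a microtubule regulator of neurons, rose 11.9-fold, while the filament gene Nes and the glial factor Sox10 fell 15.9-fold and at least 3.6-fold (adjusted p between 2e-06 and 1e-05).

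Differences were not spread evenly over the chromosomes, a view added after the data were seen. It used the 9208 genes with a mean of 6 or above in all 4 groups of S5 and WT cells, of which 38.4% rose and 25.4% fell, and 9186 of these have a chromosome. On chromosomes 8, 10, 12, 14 and 15 the median of S5 minus WT was 0.54, 0.43, 0.43, 0.40 and 0.31 over 519, 467, 334, 327 and 348 genes. On the other 15 chromosomes it lay between -0.02 and 0.12. Genes that passed as higher made up 54.9% to 68.0% of the genes on the 5 chromosomes and 26.6% to 37.2% on the others.

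The shift was alike on every S5 array. Against the mean of the WT arrays, the medians of the 5 chromosomes lay between 0.32 and 0.52 on each S5 array, and those of the other 15 between -0.06 and 0.13. Each WT array against the other WT arrays stayed between -0.12 and 0.10 on all 20 chromosomes. In KO minus WT the 5 chromosomes had medians of 0.03 to 0.15, and the other 15 of -0.17 to 0.30. In S5 minus KO the 5 chromosomes had medians of 0.22 to 0.39 and the other 15 of -0.21 to 0.26, so that the 2 ranges overlapped in both comparisons. These 2 comparisons and S5 minus WT share arrays. Over the alternative settings the medians of S5 minus WT stayed between 0.28 and 0.69 on the 5 chromosomes. On the other 15 they lay between -0.04 and 0.26 over these settings. Chromosome copy number was not measured here. The 5 chromosomes were picked by these medians, which are therefore a description with no test.

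**Figure D5:**
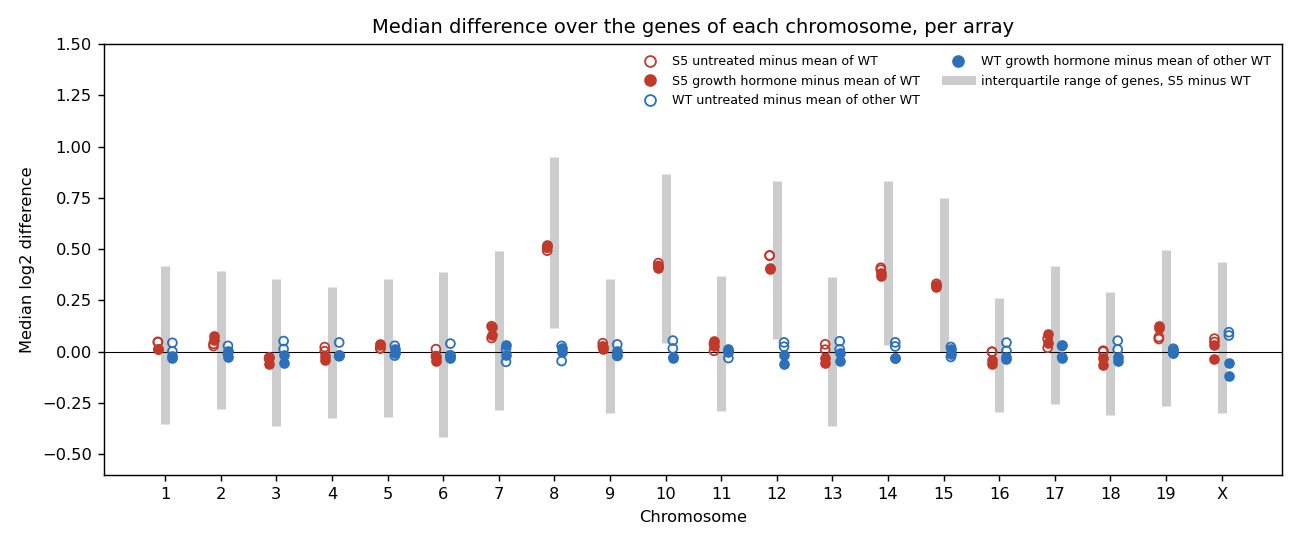
Median log2 difference (y axis) over the genes of each chromosome (x axis). Red circles are single S5 arrays minus the mean of the WT arrays, blue circles are single WT arrays minus the mean of the other WT arrays, open circles are untreated and filled circles hormone-treated, and grey bars span the interquartile range of the genes. The S5 arrays lie at 0.32 to 0.52 on chromosomes 8, 10, 12, 14 and 15 and between -0.06 and 0.13 on the others.

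The genotype difference was also tested at each treatment. Without growth hormone 6621 genes (36.4%) passed in S5 minus WT, 3674 (20.2%) higher and 2947 (16.2%) lower. With growth hormone 7016 (38.6%) passed, 3848 (21.2%) higher and 3168 (17.4%) lower. The difference between the 2 passed in 575 genes (3.16%), 260 (1.43%) with a higher and 315 (1.73%) with a lower value under the hormone. Of the genes described here Flt1 had the smallest adjusted p for this difference. It read 3.19, 3.26, 6.89 and 7.04 on the S5 arrays and 9.76, 9.74, 10.86 and 10.87 on the WT arrays, so S5 minus WT was -6.52 without and -3.90 with the hormone (difference 2.62 ± 0.08 SE, adjusted p = 0.00045). Both untreated S5 values lay below 4, and set to 4 they gave -5.75 without the hormone and a difference of 1.84 (adjusted p = 0.00061). Hoxa11 and Hoxa9 were 1.0 and 1.02 further above WT with the hormone (adjusted p = 0.0019 and 0.011). In both genes the treated WT arrays were lower than the untreated WT arrays and the treated S5 arrays were not.

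For comparison, 6142 genes (33.8%) passed in KO minus WT and 6197 (34.1%) in S5 minus KO, each with 4 against 4 arrays. Of the lists, DNA replication and mitosis had a median of -2.10 in KO minus WT beside -1.29 in S5 minus WT, and cholesterol and fatty acid synthesis -1.53 beside -0.63. Macrophage markers had -6.62 beside -7.47, while Hox genes had 0.02 beside -2.60 and fibroblast markers 0.03 beside -0.94. These medians include values too low to rank. With low levels set to 4, S5 minus WT had -5.80 for macrophage markers and -1.07 for Hox genes. The comparisons share the WT arrays, so the values are set side by side without a test.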

How the data were processed

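Total RNA of mouse embryonic fibroblasts was hybridised to 12 Affymetrix arrays as labelled cRNA, per the labels' protocols. The deposited values are on a log2 scale, as read from their range of 0.99 to 15.95 over 45101 probe sets per array, since no header states it. GCOS and RMA are named, per the submitters' processing notes, with no role, version or settings. No further normalization was done here.

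Of the probe sets, 34945 name 1 gene in the platform annotation, 932 several and 9160 none, and only the first were used. A gene with several probe sets was represented by that of highest mean level across all 12 arrays. After 13 genes of X inactivation and the Y chromosome were set aside, 18180 genes were fitted with limma 3.58.1 in R 4.3.3 on 8 arrays, with genotype and hormone as terms (5 residual degrees of freedom). Each treatment and the difference between them came from a fit of 4 group means. KO minus WT and S5 minus KO used the same model as S5 minus WT. The calls were tested on simulated data.

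The genes named are, of those past the threshold whose arrays do not overlap and that have no clone or predicted name, the 15 largest rises and falls, the 12 largest rises and falls among genes at 6 or above on all KO arrays, and the 10 largest rises among genes low in KO and WT. Up to 4 members of each of 33 lists (796 genes, 733 measured) with the smallest adjusted p, genes of the STAT5 axis, Hox genes and markers of macrophages and fibroblasts were added. The comparison and the lists were chosen with earlier results of these data known. The bound of 4, the 2-fold condition and the chromosome view were chosen after the data were seen. Alternatives changed the arrays and terms in the fit, the probe set, the normalization, the filter on dim genes, the floor, the variance prior and the array weights, and left out each array in turn. Same-numbered arrays of different groups had deviations that correlated with r between -0.08 and 0.08, so the numbers were not taken as pairs.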

Additional observations from a re-analysis of the deposited data

Results flagged for a closer look

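The difference between S5 and WT cells was not the same without and with growth hormone in 17 of the genes described, by the interaction term of the fit of 4 group means (limma, adjusted over 18180 genes). The values below are S5 minus WT on the log2 scale. Groups of 2 arrays are too small to search for single arrays that stand apart.

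Cish had -1.50 without and 1.11 with the hormone, so that its direction turned (difference 2.61, adjusted p = 0.0055). Flt1 had -6.52 and -3.90 (difference 2.62, adjusted p = 0.00045), Foxq1 4.65 and 7.16 (2.51, adjusted p = 0.017) and Prdm8 3.26 and 5.05 (1.78, adjusted p = 0.01). In Foxq1 the untreated WT arrays were the higher WT arrays, with values of 4.37, 4.86, 2.63 and 2.68, of which the last 2 are too low to rank. With each value below 4 set to 4, an alternative added after the data were seen, the difference was 2.11 in Cish and 1.84 in Flt1 (adjusted p = 0.0028 and 0.00061), and 1.17 in Foxq1, which no longer passed (adjusted p = 0.053).

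Among patterning and membrane genes, the difference rose by 1.0 in Hoxa11, 1.02 in Hoxa9 and 0.64 in Slitrk5 under the hormone (adjusted p = 0.0019, 0.011 and 0.033). For fibroblast markers it changed by -1.55 in Twist2, 0.34 in Snai2 and -0.35 in Zeb1 (adjusted p = 0.021, 0.032 and 0.033). For the chemokines it changed by 1.62 in Ccl7 and 1.22 in Cxcl10, and in H2-K1 by -0.91 (adjusted p = 0.049, 0.012 and 0.04997). The 2 untreated S5 values of Cxcl10 lay below 4, and set to 4 they turned its sign, to -0.59 (adjusted p = 0.024), so that its direction is not settled. Nnat and Rdh10 changed by -0.44 and -0.44 (adjusted p = 0.017 and 0.046).

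On the probe sets tested, Stat5a and Stat5b lay in the low mode on all S5 arrays. Their differences changed by -0.83 and -0.37 (adjusted p = 0.046 and 0.033), and the WT arrays were higher with the hormone. With each value below 4 set to 4, Stat5b no longer passed (adjusted p = 0.1), nor did Nnat, Rdh10, Snai2 and Zeb1 (adjusted p = 0.071, 0.07, 0.099 and 0.099). The Stat5a probe set that the tests did not use had a mean of 9.48 over the 4 S5 arrays, while it read 2.19 to 2.25 on the KO arrays and 2.23 to 2.38 on the WT arrays.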

How the results depend on the processing

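The 7997 calls of S5 minus WT became 13889 (11028 of them higher) when arrays were centred on their median, and 13136 (7066 higher and 6070 lower) with every probe set on its own, where 34918 probe sets and not 18180 genes were tested. Leaving out 1 array in turn gave 7030 to 7810 calls, 3900 to 4057 higher and 3130 to 3787 lower, and with at least 2-fold 2692 to 2853 calls, 1298 to 1401 higher and 1394 to 1452 lower. With the replicate number as a block, 7529 genes passed, 4157 higher and 3372 lower, and the interaction passed in 337 genes in place of 575. Why the block lowered that count was not tested, and the numbers were not found to pair the arrays. The genes described were mostly picked for large folds or small adjusted p in these data, so their stability does not stand for all calls. Of 210 genes described that passed and were not low in both genotypes, 202 kept their call and direction under all 18 alternatives that gave a value per gene. The others were C1qa, Eng, Fcgr1, Hoxa2, Hoxd3, Prrx1, Snai2 and Twist1, and 1 direction reversed, Hoxa2 with 0.60 after quantile normalization, for which the cause was not tested. With each value below 4 set to 4, the treated minus untreated difference of Cxcl10 reversed to -0.59, which that construction gives through its 2 low S5 values. Of the genes that did not pass, Cx3cr1, Ddr2, Hoxa5, Jak2, Ppbp, S100a4, Spi1 and Vim passed under at least 1 alternative. The number of 2-fold members of a list moved by over 1.5 times in 36 of 1188 values. Differences near the low mode, groups of 2 arrays and probe sets without a gene name limit what these arrays can show.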
